A study of Spodoptera frugiperda with 3 samples.

Results

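Verson's glands are paired epidermal glands of caterpillars, set along the body segments and emptied at each molt. The study proposes that they may add to molting fluid, which loosens and digests the old cuticle, and that they may also release proteins into the hemolymph. The steroid hormone ecdysone starts each molt, and juvenile hormone decides whether the next stage is again a larva, so the prepupa, which has stopped feeding and is about to become a pupa, meets both hormones at other levels than a last instar larva does. Here the transcriptome of prepupal glands was compared with that of glands from the last larval instar (L6) of the fall armyworm, *Spodoptera frugiperda*. Both libraries came from FAW-SID1, a transgenic strain that carries green fluorescent protein under the hr5-IE1 promoter and SID1 of *Caenorhabditis elegans* under the IE1 promoter, so neither stage is a wild type. The sources used here state neither how many insects went into a library nor their age within the stage. The comparison holds 11003 of the 18811 protein-coding genes listed, namely those with 20 or more exon reads in either library, out of 20644 genes in all.

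Each stage had 1 library, so the differences below are without a replicate check or a p-value. Values are TPM (reads per exon length, scaled to a fixed sum) after leaving out rRNA genes and the mitochondrial sequence and rescaling each library to the same total. A share of a library below is a share of this rescaled TPM, not of its reads, so short genes weigh more in it than in read counts. A log2 ratio is that of rescaled TPM + 1 in the prepupa over L6. Brackets after a fold give the 95% interval of the read counts, which covers counting error only, and where a library had no read the fold is a lower bound that assumes 3 reads there. Outside rRNA and mitochondrial genes the prepupal library held 15161624 exon reads and the L6 library 2610753, of 15208331 and 21366500 exon reads in all, so low values were less precise in L6. Of the genes compared, 635 had fewer than 20 reads in the prepupa and 3994 in L6. The intron share of the reads on these genes was 5.85% (95% Wilson interval 5.83 to 5.86%) in the prepupa and 7.94% (7.90 to 7.97%) in L6. In bulk RNA, fewer cells of a type and less RNA per cell cannot be told apart.

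The stages differed widely. In the prepupal gland 1840 genes (16.7% of those compared) were at least 4-fold higher than in L6, and 935 genes (8.5%) were at least 4-fold lower. A further step to 10-fold left 650 genes higher and 560 lower, and at 100-fold there were 106 higher and 82 lower. The median log2 ratio was 0.59, a shift of 1.51-fold that all the ratios below should be read against, and 5761 genes (52.4%) lay within 2-fold of it. Other scalings moved this balance. TPM as deposited gave 4552 higher and 463 lower genes, and ratios centred on their median gave 1103 higher and 1260 lower. The 1840 higher genes made up 43.3% of the prepupal library and 1.68% of the L6 library. Conversely, the 935 lower genes made up 0.416% of the prepupal library and 38.6% of the L6 library. For 1527 of the higher genes and 895 of the lower ones the counting interval itself lay beyond 4-fold. No read was seen in L6 for 355 of the higher genes, of which 321 stayed beyond 4-fold against the floor, while 170 of the lower genes had no read in the prepupa and all 170 stayed beyond it.

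**Figure D1:**
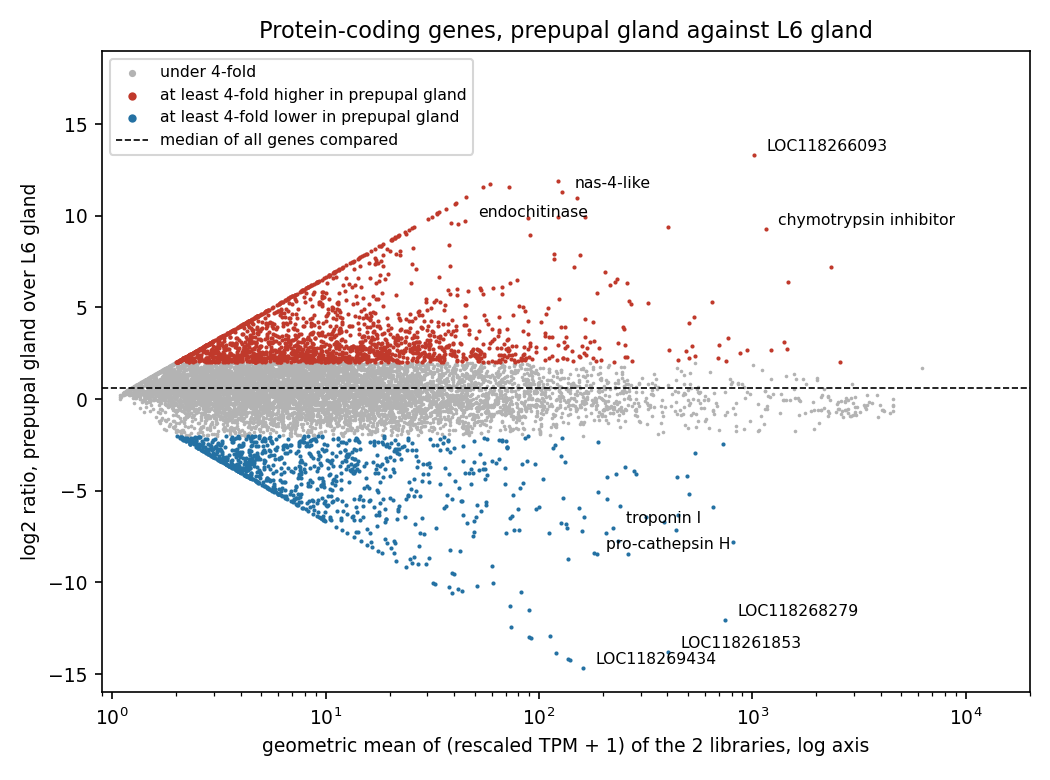
Each point is 1 of the 11003 protein-coding genes compared. The vertical axis gives the log2 ratio of rescaled TPM + 1, prepupal gland over L6 gland, and the horizontal axis (log scale) the geometric mean of rescaled TPM + 1 over both libraries. Red points are the 1840 genes at least 4-fold higher in the prepupa, blue points the 935 at least 4-fold lower, and the dashed line is the median of 0.59. The slanted edges are formed by genes with no or almost no read in 1 of the libraries.

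Few transcripts carried much of each library, and only 1 of them, a long noncoding RNA, was among the 10 most abundant of both. The 10 most abundant genes of the prepupal library took 27.95% of it and 2.10% of the L6 library, and 8 of them were at least 4-fold higher in the prepupa. The 10 most abundant genes of the L6 library took 0.979% of the prepupal library and 24.6% of the L6 library, and 9 of those were at least 4-fold lower in the prepupa. LOC118266093, a gene for an uncharacterized protein with 2 exons, alone took 10.3% of the TPM of the prepupal library, with a TPM of 103464 in the prepupa and 9.15 in L6 (11313-fold, 7663 to 17481). By reads it had 1182101 of the 15161624 prepupal exon reads outside rRNA and mitochondrial genes. A chymotrypsin inhibitor gene (LOC118275519) and a pair of genes for proteins named after a centipede venom toxin, U-scoloptoxin(19)-Sm1a-like (LOC118262745 and LOC118262758), followed among the protein-coding genes. Their TPM was 28844, 28127 and 13537 in the prepupa, and 45.3, 193 and 158 in L6. Elongation factor 1-alpha (LOC118272072), which brings charged tRNAs to the ribosome, stood among the 10 most abundant of the prepupa with the smallest ratio of the protein-coding ones, at 11173 TPM in the prepupa and 3477 TPM in L6 (3.21-fold, 3.16 to 3.27). Glucose dehydrogenase LOC118265752, at 10449 and 14.5 TPM in prepupa and L6, is uncertain as a single gene, since only 0.966% of its exon reads were unique to it.

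**Figure D2:**
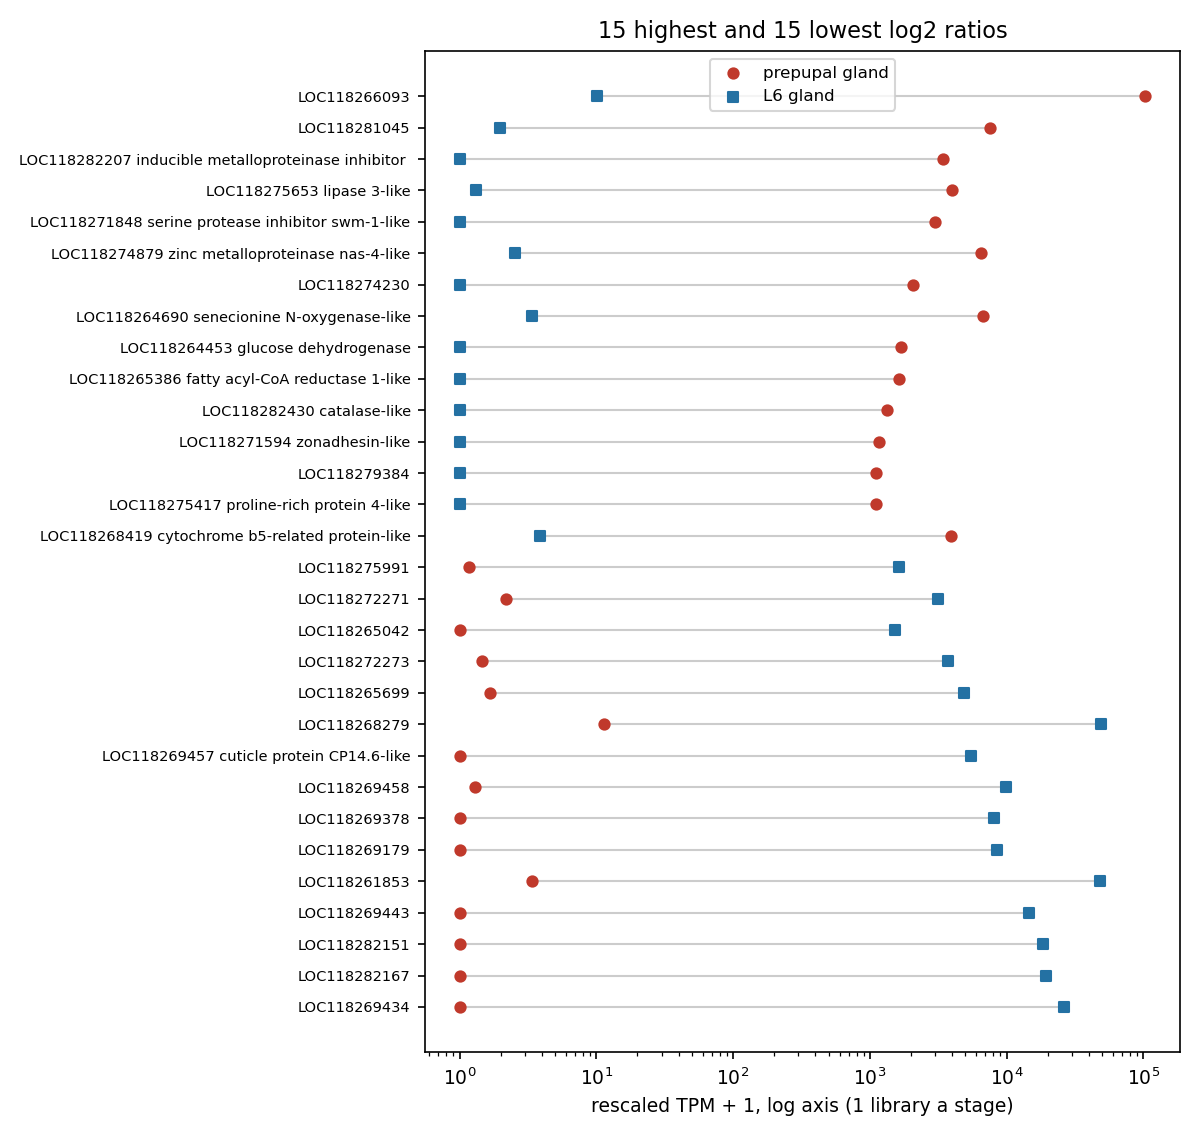
Rescaled TPM + 1 (log axis) of the 15 genes with the highest and the 15 with the lowest log2 ratio, among genes with at least 50% unique exon reads. Circles are the prepupal gland and squares the L6 gland, 1 library each, so there is no error bar. The upper 15 genes lie between 1106 and 103464 TPM in the prepupa and at 9.15 TPM or less in L6. The lower 15 lie at 10.4 TPM or less in the prepupa and between 1523 and 48817 TPM in L6, and most of those are known here only by their identifiers.

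Of the 15 genes with the highest ratios, 8 were named as enzymes or protease inhibitors. A zinc metalloproteinase of the astacin family, nas-4-like (LOC118274879), had 6469 TPM in the prepupa and 1.55 TPM in L6 (4182-fold, 1792 to 12880). Senecionine N-oxygenase-like LOC118264690, named after a moth enzyme that detoxifies plant alkaloids, had 6755 TPM in the prepupa and 2.39 TPM in L6 (2830-fold, 1539 to 5902). Lipase 3-like LOC118275653 had 3969 TPM in the prepupa, against 1 read or 0.318 TPM in L6 (12498-fold, 2243 to 493660). No L6 read fell on glucose dehydrogenase LOC118264453 (1674 TPM in the prepupa, at least 3202-fold higher), on catalase-like LOC118282430 (1339 TPM, at least 2026-fold) or on zonadhesin-like LOC118271594 (1162 TPM, at least 1175-fold). The second highest ratio belonged to LOC118281045, a gene without a protein name here, at 7598 TPM in the prepupa and 0.988 TPM in L6.

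Protein names were at hand for 2188 of the 11003 genes, of which 1931 came from the study's selection of genes higher in these glands than in other tissues, 224 from relatives of silkworm hemolymph protein genes and 33 from genes lower in glands. The median log2 ratio in these sets was 0.85, -0.47 and -0.03. Of the named genes 24.1% were at least 4-fold higher in the prepupa and 7.86% at least 4-fold lower, with a median log2 ratio of 0.74. The gene lists below were drawn from these names, so their counts are set against those shares, they are not independent evidence of a direction, and each omits genes that carry no name here.

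Many cuticle protein genes were lower in the prepupa. Cuticle proteins bind chitin and set how stiff or flexible the cuticle is, and larval, pupal and adult cuticles use different sets. Of 20 named cuticle protein genes compared, 13 were at least 4-fold lower in the prepupa, 2 were at least 4-fold higher and 5 lay between, with a median log2 ratio of -5.71. Most of these genes passed the read minimum through L6 alone, and the median was -0.63 with 20 reads in both libraries and -2.08 without a filter. The larval cuticle protein genes LCP-30 (LOC118282342) and LCP-17 (LOC118282344) had 0.0811 and 0.464 TPM in the prepupa, from 1 and 4 reads, and 1326 and 1085 TPM in L6. LCP-22 (LOC118282346) had no read in the prepupa and 1028 TPM in L6, at least 2781-fold lower. Cuticle protein CP14.6-like (LOC118269457) had no read in the prepupa and 5508 TPM in L6, at least 12759-fold lower. The pair that went the other way were both cuticle protein 19-like (LOC118261992 and LOC118261804), with 489 and 227 TPM in the prepupa and no read in L6, at least 336-fold and 149-fold higher. Endocuticle structural glycoprotein SgAbd-8-like (LOC118282343) had 68.7 TPM in the prepupa and 107 TPM in L6, and pupal cuticle protein-like LOC118274730 had 12.3 TPM in the prepupa and 13.2 TPM in L6, so the list did not move as one.

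The genes with the lowest ratios of all had no protein name here, but several lay beside these cuticle genes. On the files' sequence NC_049712.1, positions 9808838 to 9918125 of the files' build, 14 protein-coding genes follow each other, beginning with LCP-22, LCP-30 and LCP-17 genes and ending with 5 unnamed genes of 3 or 4 exons. Of 12 of them compared, 10 were at least 4-fold lower in the prepupa and 1, the unnamed LOC118261727, was higher (35.3 TPM in the prepupa and 1.08 TPM in L6). At the end of this stretch LOC118261853 had 2.37 TPM in the prepupa and 48027 TPM in L6 (20256-fold lower, 12970 to 33646), while LOC118282167 and LOC118282151 had no read in the prepupa and 19443 and 18589 TPM in L6. In all, the stretch took 0.00621% of the prepupal library and 9.01% of the L6 library.

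Short groups of lower genes are described at 3 more places, given here by the files' positions. At 2 of them a named cuticle protein gene was in the group. The other group, on NC_049721.1, had no named gene. There the unnamed LOC118269434, LOC118269458 and LOC118269378 (887693 to 920938) had 0, 0.289 and 0 TPM in the prepupa and 26144, 9829 and 8056 TPM in L6. On the same sequence, LOC118269179 and LOC118269443 stood next to CP14.6-like (12060808 to 12092720), with no read in the prepupa and 8456 and 14499 TPM in L6. On NC_049720.1 LOC118268279 and LOC118268278 flanked flexible cuticle protein 12-like (9129610 to 9147348), with 10.4 and 0.152 TPM in the prepupa and 48817 and 564 TPM in L6. These 4 places, picked after their values were seen, held 21 genes compared, of which 19 were at least 4-fold lower, and took 0.00734% of the prepupal library and 21.3% of the L6 library. Among the 50 lowest ratios, 9 of the 43 genes not named as cuticle proteins lay within 100 kb of a named cuticle protein gene (20.9%), against 1 of 49 among the 50 highest ratios and 156 of 10983 among all genes compared (1.42%). The 9 genes include some from the places above, such as LOC118261853, LOC118269443 and LOC118268279, so their share is not separate from those picked groups. Whether the unnamed neighbours code for cuticle proteins is not annotated in the sources used here.

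Runs of 4 or more neighbouring protein-coding genes past 4-fold in the same direction were not rare. There were 12 such runs of higher genes (56 genes) and 10 of lower genes (41 genes). For higher genes, 2 places picked after their values were seen are described here. On NC_049712.1, positions 12812128 to 12854673, 13 protein-coding genes follow each other, and all 12 compared had no read in L6 and a TPM ratio (with 1 added) past 4-fold. Against the floor of 3 reads 10 of them were at least 4-fold higher, and the other 2, LOC118261800 and LOC118262031, at least 2.39-fold and 3.27-fold. The named ones, both histidine-rich glycoprotein-like (LOC118262036 and LOC118262032), had 646 and 266 TPM in the prepupa. A group of 7 genes on NC_049715.1, positions 4556185 to 4604613, has a glucose dehydrogenase gene at each end (LOC118264388 and LOC118264453), and 6 of its 7 genes compared were at least 4-fold higher, with 2095 TPM in sum in the prepupa and 5.29 TPM in L6.

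**Figure D3:**
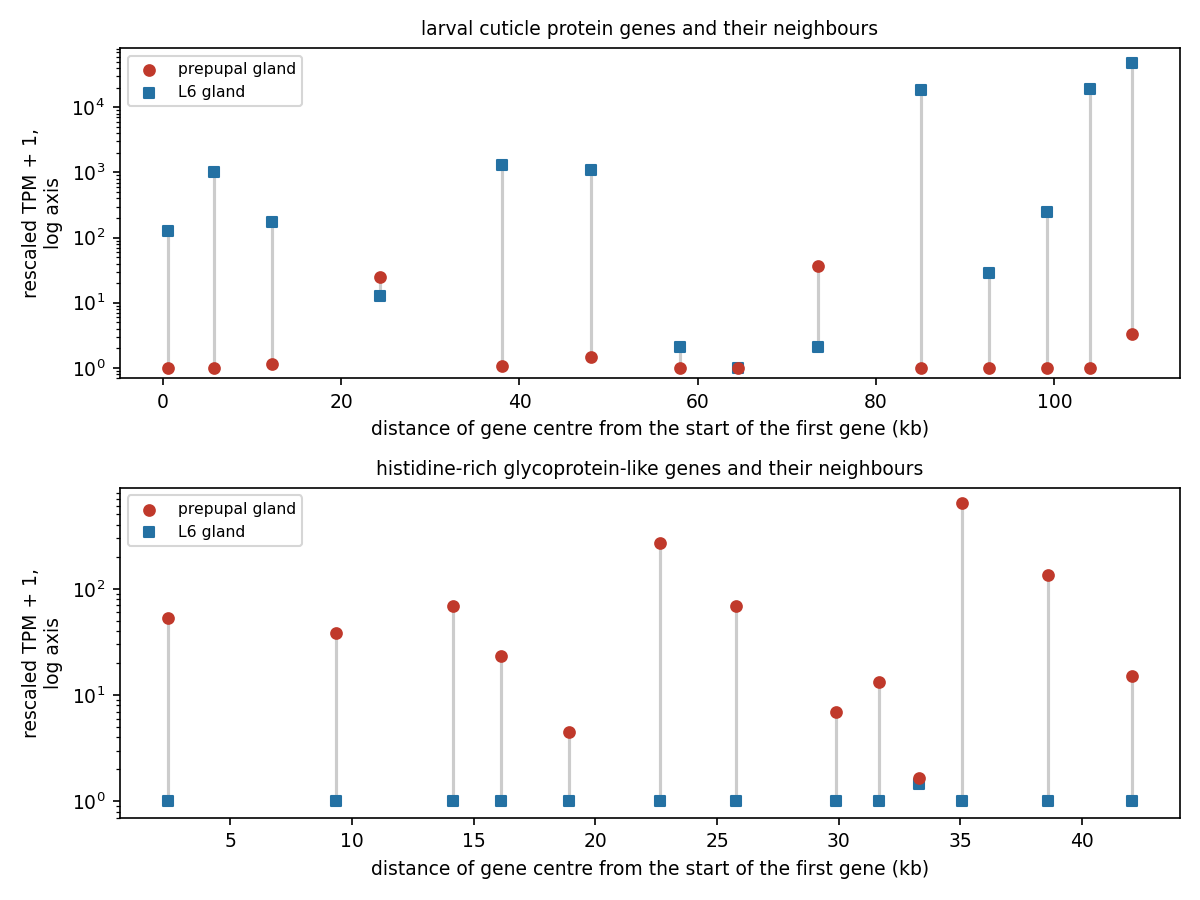
Rescaled TPM + 1 (log axis) of each protein-coding gene against its distance along the chromosome from the start of the first gene of the group. Circles are the prepupal gland and squares the L6 gland. Above, the 14 genes from the first LCP-22 gene to LOC118261853, of which 10 were at least 4-fold lower in the prepupa. Below, the 13 genes around the histidine-rich glycoprotein-like genes, of which 12 were compared, none with an L6 read, and 10 were at least 4-fold higher against the floor of 3 reads.

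Protease inhibitors keep secreted proteases in check. Of 15 named genes compared, 7 were at least 4-fold higher, 3 at least 4-fold lower and 5 between (median log2 ratio 1.32), and together they took 4.12% of the prepupal library and 0.246% of the L6 library. Chymotrypsin inhibitor LOC118275519 alone gave 28844 of the 41196 TPM that the list summed to in the prepupa. Inducible metalloproteinase inhibitor genes, named after a wax moth protein that blocks the metalloproteinases of microbes, were near absent in L6. LOC118282207, LOC118261953 and LOC118282478 had 3446, 2751 and 989 TPM in the prepupa, and 0, 1.88 and 0 TPM in L6. Inhibitor swm-1-like LOC118271848 had 2988 TPM in the prepupa and no read in L6 (at least 2442-fold), and the serpins 77Ba-like (LOC118279277) and 88Ea-like (LOC118262736) were 36.7-fold (31.4 to 43.1) and 21.6-fold (17.3 to 27.4) higher. The inhibitors that were lower included fungal protease inhibitor-1-like (LOC118267111), with 1.58 TPM in the prepupa and 1401 TPM in L6, and antichymotrypsin-1-like (LOC118265780), with 0.307 TPM in the prepupa and 515 TPM in L6. The inhibitors abundant at one stage were thus mostly not those of the other.

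Peptidases divided in the same way. Of 23 named peptidases compared, some of them lysosomal or named as transmembrane, 10 were at least 4-fold higher and 3 at least 4-fold lower. Beside nas-4-like, transmembrane protease serine 9-like (LOC118269693) had 326 TPM in the prepupa and 0.224 TPM in L6, from 1 read, and trypsin-1-like LOC118271895 had 308 TPM in the prepupa and 1.30 TPM in L6 (237-fold, 92.4 to 869). Carboxypeptidase B-like LOC118266420, which trims basic residues from protein ends, had 83.0 TPM in the prepupa and no read in L6. Pro-cathepsin H-like LOC118267144, a lysosomal cysteine protease, made the opposite change, with 8.80 TPM in the prepupa and 3336 TPM in L6 (379-fold lower, 326 to 443). Cathepsin L1-like (LOC118276442) had 780.5 TPM in the prepupa and 274 TPM in L6.

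Chitin enzymes, which cut the polysaccharide of the old cuticle or alter it, showed a large difference in 1 gene. Endochitinase-like LOC118278006 had 1315 TPM in the prepupa and 0.549 TPM in L6, from 4 reads (2396-fold, 936 to 8793). Of the 10 genes compared, 3 were at least 4-fold higher, none lower, with a median log2 ratio of 1.09. A chitooligosaccharidolytic beta-N-acetylglucosaminidase (LOC118272518), which splits the fragments that chitinases leave, had 69.4 TPM in the prepupa and 8.52 TPM in L6 (8.15-fold, 6.71 to 9.99). The chitin deacetylase 1 genes LOC118273193 and LOC118273685 had 287 and 255 TPM in the prepupa and 152 and 210 TPM in L6, ratios within 2-fold. Chitinase-like protein EN03 (LOC118276216), of the group of imaginal disc growth factors that do not cut chitin, had 235 TPM in the prepupa and 586 TPM in L6. Among 14 chitin-binding matrix genes, 5 were at least 4-fold higher, led by mucin-5AC-like LOC118268441 (32.7 TPM in the prepupa and 0.137 TPM in L6), and 4 were lower, including the mucin-19-like genes LOC118265872 and LOC118266000 (0.0245 and 0 TPM in the prepupa, and 38.7 and 29.8 TPM in L6).

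A list of ecdysone response genes and nuclear receptors, with Krueppel homolog 1 and ERR1 among them, was mostly higher in the prepupa. The ecdysone receptor switches on early genes such as broad, and beta FTZ-F1 and HR4 act later in the same cascade. Of 7 genes compared, 6 were at least 4-fold higher in the prepupa, none was lower by that much, and the median log2 ratio was 3.26. HR4-like (LOC118262489) had 58.6 TPM in the prepupa and 0.0952 TPM in L6 (615-fold, 170 to 5083). FTZ-F1-like (LOC118267427) had 108 TPM in the prepupa and 6.13 TPM in L6 (17.7-fold, 14.7 to 21.5), and the ecdysone receptor (LOC118267067) 58.1 TPM in the prepupa and 5.17 TPM in L6 (11.2-fold, 9.25 to 13.8). The broad-complex gene (LOC118269059), which specifies pupal development in insects, had 88.4 TPM in the prepupa and 13.5 TPM in L6 (6.55-fold, 5.99 to 7.18). Krueppel homolog 1-like (LOC118273446), a factor that juvenile hormone induces, was also higher, at 18.6 TPM in the prepupa and 0.714 TPM in L6, from 3 reads. ERR1-like (LOC118275422), a regulator of sugar metabolism in *Drosophila*, was the exception, at 5.41 TPM in the prepupa and 16.4 TPM in L6. Cytochrome P450 18a1-like (LOC118266961), which in *Drosophila* inactivates ecdysteroids, had 107 TPM in the prepupa and 9.52 TPM in L6 (11.3-fold, 8.76 to 14.7).

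On the juvenile hormone side, 3 of 4 genes named juvenile hormone esterase-like were at least 4-fold higher, led by LOC118275676 (109 TPM in the prepupa and 0.606 TPM in L6). Between 14.7% and 38.2% of the exon reads of these 4 were unique to 1 gene, so the genes cannot be read singly. Juvenile hormone-binding protein-like LOC118276399, a carrier of the hormone in blood, had 19.2 TPM in the prepupa and 841 TPM in L6 (43.9-fold lower, 37.5 to 51.6). Among epidermal regulators, grainyhead-like (LOC118269607), which in *Drosophila* controls cuticle barrier genes, had 189 TPM in the prepupa and 13.5 TPM in L6 (14-fold, 11.8 to 16.8), and ovo-like and spalt-major-like (LOC118263447 and LOC118273182) were 6.72-fold and 5.52-fold higher.

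Enzymes of cuticle tanning, which harden and darken cuticle through catechols, split by kind. Of 10 genes, 5 were at least 4-fold higher and 2 at least 4-fold lower. Yellow-like LOC118264028 had 2002 TPM in the prepupa and 51.4 TPM in L6 (38.9-fold, 35 to 43.4), and tyrosine 3-monooxygenase-like (LOC118263443), which makes DOPA from tyrosine, 39.6 TPM in the prepupa and 2.28 TPM in L6 (17.3-fold, 10.1 to 32.7). Laccase-1-like (LOC118266894) was 65.7-fold higher (37.5 to 127). The 2 lower genes were the prophenoloxidases, products of blood cells in caterpillars, which were measured at 1.55 and 1.82 TPM in the prepupa (LOC118274553 and LOC118274789) and 219 and 81.4 TPM in L6.

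Lipid enzymes were high in the prepupa. In the list of fatty acid and wax synthesis 6 of 9 genes were at least 4-fold higher, none lower, with a median log2 ratio of 5.29. That median was 1.55 with unique reads, 1.56 with 20 reads in both libraries and 2.51 without a filter, and LOC118265399 and LOC118265401 among the 6 had no unique read. Fatty acyl-CoA reductases make fatty alcohols, and fatty acyl-CoA reductase 1-like LOC118265386 had 1624 TPM in the prepupa and no read in L6 (at least 2291-fold). The acyl-CoA Delta(11) desaturase-like gene (LOC118264952), of a family best known from moth pheromone glands, had 4061 TPM in the prepupa and 103 TPM in L6 (39.5-fold, 36.7 to 42.5). Cytochrome b5-related LOC118268419 had 3888 TPM in the prepupa and 2.91 TPM in L6. Fatty acid synthase-like LOC118272899, which makes the chains these enzymes modify, had 125 TPM in the prepupa and 41.95 TPM in L6. Of 8 breakdown enzymes 5 were at least 4-fold higher and none lower, with a median log2 ratio of 2.62. That median was 0.80 with 20 reads in both libraries and 1.42 with a pseudocount of 5. Carnitine O-palmitoyltransferase 2 (LOC118265397), which completes the entry of fatty acids into mitochondria, had 75.9 TPM in the prepupa and 4.32 TPM in L6 (17.5-fold, 12.7 to 25).

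Among catalase-like and peroxidase-like genes, named for enzymes that act on hydrogen peroxide, most were at least 4-fold higher in the prepupa and 1 was at least 4-fold lower. A count over every protein name shared by 4 or more genes, a rule set after the values were seen, gave 13 families, of which zonadhesin-like was the only one with all members at least 4-fold higher (5 of 5) and troponin C-like the only one with all lower (4 of 4). Catalases break down hydrogen peroxide, and 3 of 4 catalase-like genes were at least 4-fold higher, while LOC118262513, the most abundant of them in L6, had 361 TPM in the prepupa and 1086 TPM in L6. Of 5 peroxidase-like genes, 4 were at least 4-fold higher and LOC118262077 had no read in the prepupa and 453 TPM in L6. Of 12 genes named glucose dehydrogenase, which oxidize sugars and are linked to cuticle formation in insects, 6 were at least 4-fold higher and 2 lower.

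Glutamine synthetase 2 (LOC118273974), which joins ammonia to glutamate, had 2245 TPM in the prepupa and 17.4 TPM in L6 (129-fold, 106 to 158). Phosphoserine phosphatase-like (LOC118268972), the last step of serine synthesis, was 7.28-fold higher (6.37 to 8.36). The rest of the list of 10 amino acid enzymes included 1 further gene at least 4-fold higher and 1 lower, and its median of 0.46 was below the 0.59 of all genes and came to -0.01 with CPM (reads without regard to length) in place of TPM, to -0.14 after centring on the median of all genes and to -0.16 after centring on genes of like exon length.

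Genes of secretion differed by smaller steps, with shares of higher genes not far from the 24.1% of all named genes. The V-ATPase pumps protons into vesicles, and all 9 subunits had log2 ratios above the median of all genes, from 0.64 to 3.37, with 3 at least 4-fold higher and none lower. Catalytic subunit A (LOC118267501) had 429 TPM in the prepupa and 40.6 TPM in L6 (10.6-fold, 9.38 to 12), while subunit F (LOC118268252) had 450 TPM in the prepupa and 289 TPM in L6 (1.56-fold, 1.45 to 1.68), about the 1.51-fold shift of all genes. For subunits of 1 complex these steps were unequal. In the secretory pathway 6 of 20 genes were at least 4-fold higher, none lower, and the median was 1.18. Protein disulfide-isomerase A3-like (LOC118272081), which forms disulfide bonds in new secreted proteins, had 2405 TPM in the prepupa and 374 TPM in L6 (6.42-fold, 6.12 to 6.74). Calnexin-like LOC118263516, a chaperone of glycoproteins, had 68.1 TPM in the prepupa and 3.40 TPM in L6 (20.1-fold, 14.2 to 29.4), and coatomer subunit beta' (LOC118275640), part of a vesicle coat, was 9.71-fold higher (7.97 to 11.9).

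Ribosomal protein, proteasome and glycolysis genes mostly lay within 4-fold, and translation factors had about the share of higher genes seen among all named genes. None of 18 cytosolic ribosomal protein genes passed 4-fold in either direction, and their median was -0.24, against 1.62 with TPM as deposited and 0.05 after centring on genes of like exon length. The proteasome list, whose subunits degrade tagged proteins, had 1 of 17 genes at least 4-fold higher, none lower and a median of -0.38 (1.47 with TPM as deposited). In the 8 glycolysis genes none passed, at a median of -0.30 (1.51 with TPM as deposited), and glyceraldehyde-3-phosphate dehydrogenase (LOC118271716) had 581 TPM in the prepupa and 1954 TPM in L6 (3.36-fold lower, 3.25 to 3.47). Of 22 translation factors 5 were at least 4-fold higher and none lower, a share of higher genes close to the 24.1% of all named genes. Their median was 0.61, about the 0.59 of all genes. Elongation factor 2 (LOC118265757), which moves the ribosome along, was among the 5, at 2103 TPM in the prepupa and 367 TPM in L6. Of 7 aminoacyl-tRNA synthetases 3 were at least 4-fold higher, none lower, at a median of 1.99.

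**Figure D4:**
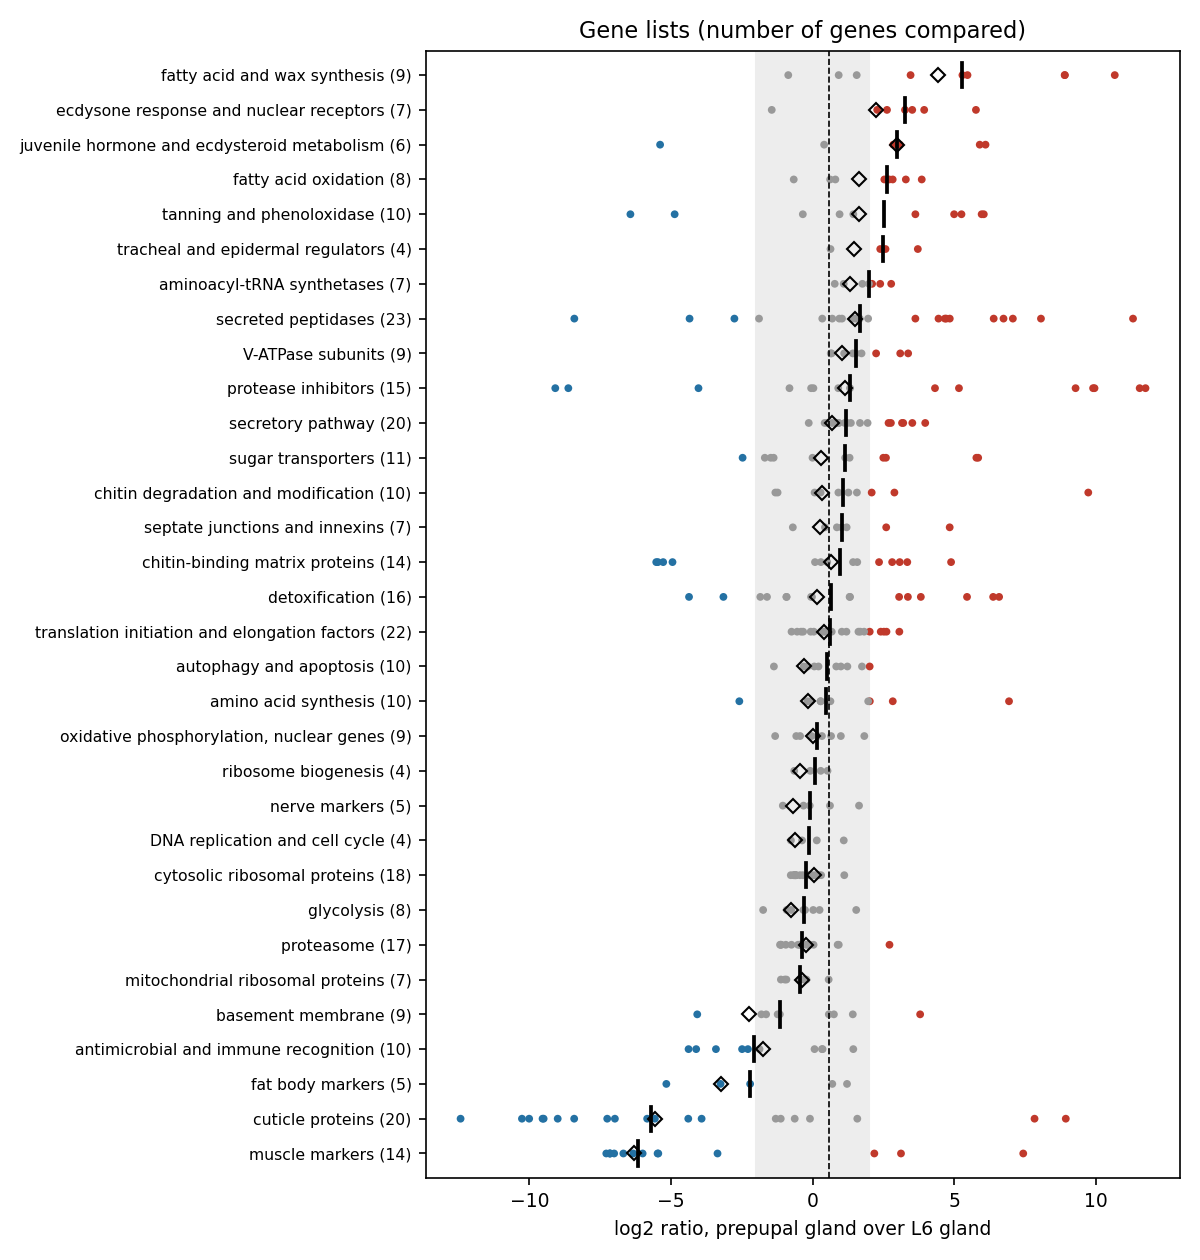
Log2 ratio, prepupal gland over L6 gland, of each gene (points) in the lists with at least 4 genes compared, with the number compared in brackets. Red points are at least 4-fold higher in the prepupa, blue points at least 4-fold lower, black bars the median of a list, open diamonds the median after centring on genes of like exon length, and the dashed line the median of 0.59 over all genes. The median of fatty acid and wax synthesis is 5.29 here but 1.55 with unique reads, and those of the muscle and cuticle protein lists are -6.17 and -5.71, the cuticle one -0.63 with 20 reads in both libraries.

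Exon length moved with the ratios. The median log2 ratio was -0.45 in 1369 genes of 500 to 1000 exon bases and 1.03 in 1512 genes of over 5000 bases. The share of genes at least 4-fold lower was 19.9% in the shorter of these classes and 1.39% in the longer one. Across the 11003 genes, which are not independent replicates, Spearman's rho between length and ratio was 0.32. Within lists it was highest for fatty acid oxidation (0.90), chitin enzymes (0.88), detoxification (0.76) and muscle markers (0.72). It was 0.71 for the proteasome, 0.69 for translation factors, 0.67 for tRNA synthetases, 0.66 for cytosolic ribosomal proteins and 0.57 for the V-ATPase. Each of these lists held 7 to 22 genes. It was near 0 for peptidases (-0.04) and ecdysone factors (-0.11), and negative for fatty acid and wax synthesis (-0.79), amino acid synthesis (-0.48) and protease inhibitors (-0.44). Prepupa over pupa gave 0.45 and pupa over L6 gave -0.24. Centred on the median of genes of like length, an alternative chosen after seeing the data, the tRNA synthetase list had no gene at least 4-fold higher in place of 3 and a median of 1.31. Translation factors had 1 higher in place of 5, chitin enzymes 1 in place of 3, fatty acid oxidation 2 in place of 5, the secretory pathway 5 in place of 6, and ecdysone factors 4 in place of 6, with ERR1-like lower. Sugar carriers then had 2 higher and 4 lower, basement membrane genes 1 higher and 5 lower, amino acid enzymes 1 higher in place of 3, and epidermal regulators 1 higher in place of 3. Cuticle proteins had 13 lower and 2 higher as before, protease inhibitors 7 higher and 3 lower, peptidases 10 higher and 4 lower, and wax synthesis 6 higher. The class medians ran only from -0.45 to 1.03, so centring could hardly change the call of a ratio far beyond 4-fold. These counts therefore do not tell what part length had in the differences, which was not tested beyond this.

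**Figure D5:**
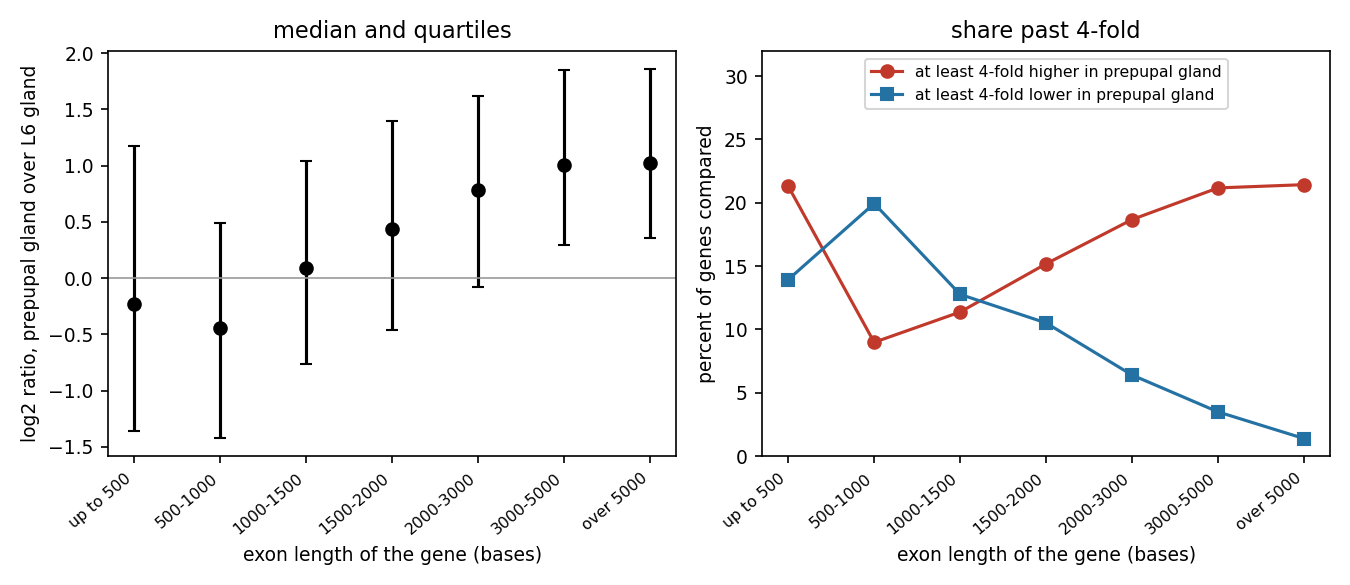
Left, the median log2 ratio, prepupal gland over L6 gland, with bars from the lower to the upper quartile, in 7 classes of exon length. Right, the share of genes in each class at least 4-fold higher (circles) and at least 4-fold lower (squares) in the prepupa. The median runs from -0.45 in the class of 500 to 1000 bases to 1.03 in the class above 5000 bases.

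Markers of muscle, and some of fat body and blood cells, were lower in the prepupa. Of 14 genes on the muscle list, 11 were at least 4-fold lower and 3, all titin-like, at least 4-fold higher, and the list summed to 391 TPM in the prepupa and 13999 TPM in L6. Troponin I (LOC118263900), which blocks contraction at rest, had 18.7 TPM in the prepupa and 2535 TPM in L6 (135-fold lower, 121 to 152), and myosin regulatory light chain 2 (LOC118270279) 36.1 TPM in the prepupa and 5230 TPM in L6. Titin-like LOC118269398, with 49.85% of its reads unique, had 210 TPM in the prepupa and 1 read or 0.219 TPM in L6. Of 5 fat body markers 3 were at least 4-fold lower and none higher (325 TPM in sum in the prepupa and 3280 TPM in L6), led by the lipid carrier apolipophorin-3 (LOC118274630) at 83.5 TPM in the prepupa and 3028 TPM in L6, whereas the storage protein gene LOC118272014 had 158 TPM in the prepupa and 67.4 TPM in L6. Of 3 blood cell markers 2, the prophenoloxidases, were lower and draper was higher. Of 3 midgut markers 1 (aminopeptidase N-like LOC118268234, 29.5 TPM in the prepupa and 1.47 TPM in L6) was at least 4-fold higher and 1 lower, and the 1 silk gland marker compared, silk gland factor 3-like LOC118280989, had 126 TPM in the prepupa and 35.6 TPM in L6. Basement membrane genes, which blood cells and fat body make in *Drosophila*, had 1 of 9 at least 4-fold lower and 1 higher, with SPARC-like (LOC118269687) at 55.1 TPM in the prepupa and 944 TPM in L6. Their median was -1.16, and 0.66 with TPM as deposited. How far the share of these tissues in the dissected samples set the lower genes was not tested.

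The list of antimicrobial and immune recognition genes, which does not hold the inducible metalloproteinase inhibitors described among the protease inhibitors and much higher in the prepupa, had 5 of 10 genes at least 4-fold lower and none higher. Its median was -2.08, but -0.94 with unique reads and -0.24 with TPM as deposited. Lysozyme-like LOC118265509, which cuts bacterial walls, had 39.6 TPM in the prepupa and 432 TPM in L6 (10.9-fold lower, 9.67 to 12.3), and the antimicrobial peptide gloverin (LOC118279253) 6.26 TPM in the prepupa and 124.5 TPM in L6 (19.9-fold lower, 14.6 to 27.6). Lebocin-4-like (LOC118280606) had 199 TPM in the prepupa and 190 TPM in L6, a ratio whose counting interval (0.935 to 1.18) includes 1.

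Transporters and detoxification genes were mixed. Of 11 trehalose and glucose carriers 4 were at least 4-fold higher and 1 lower, with Tret1-like LOC118281930 at 73.9 TPM in the prepupa and 0.362 TPM in L6, from 2 reads. Of 16 detoxification genes 6, all cytochrome P450s but for 1 glucuronosyltransferase, were at least 4-fold higher, and 2 glutathione transferases were lower. Cytochrome P450 301a1 (LOC118271250), which takes part in adult cuticle formation in *Drosophila*, had 81.9 TPM in the prepupa and no read in L6 (at least 118-fold). Glutathione S-transferase 1-1-like (LOC118269853) had 4.76 TPM in the prepupa and 117.5 TPM in L6 (24.7-fold lower, 18.5 to 33.6). The lists of autophagy and apoptosis (1 of 10 at least 4-fold higher), nuclear respiratory chain genes (0 of 9), replication and cell cycle (0 of 4) and nerve markers (0 of 5) held almost no gene past 4-fold, and none past it in the lower direction.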

How the data were processed

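Verson's glands of FAW-SID1 were dissected at each stage, RNA was isolated with Trizol, and the authors sequenced 1 library per stage on the BGISEQ-500 and mapped it in CLC Genomics Workbench with a mismatch cost of 2, insertion and deletion costs of 3 and length and similarity fractions of 0.8. The labels mention size fractionation. The authors deposited, for each gene, read counts on exons, introns and exon junctions, TPM and RPKM. The build, the annotation version and how multi-mapped reads were counted were not given in the sources used here. Positions are those of the files.

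TPM of the prepupa and L6 was rescaled to a common total without rRNA genes and the mitochondrial sequence. Log2 ratios used a pseudocount of 1 on genes with 20 or more exon reads in either library. With 1 library a stage no test was made. Intervals of folds are exact conditional binomial (Clopper-Pearson) intervals of the reads at 95%, and floors are 3 reads. PCR duplicates are not known, so both cover counting error only.

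The 36 lists were made by protein name, from the study's tables of genes, of which the longest was held only in part and was chosen on these libraries. In all, 14 gene entries matched by accident were left out after values were seen. Members and lists were chosen with earlier results of these data known. The genes named are the 15 highest and 15 lowest ratios among genes with at least 50% unique reads, the 10 most abundant of each library, up to 4 most abundant of each list, and the 2 largest ratios each way in a list, not all of which are printed. Others are genes of shared names, genes of the same place or members of a list chosen after their values were seen. Measures were run on simulated libraries with 200 changed genes and counting error only. These held no trend with exon length and no other variation between libraries, so they do not check the calls made here. Alternatives were other scalings (TMM of edgeR 4.0.16 in R 4.3.3, CPM, RPKM, TPM as deposited, centring), unique reads, pseudocounts, filters and folds.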

Additional observations from a re-analysis of the deposited data

Results flagged for a closer look

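Long noncoding RNA genes lay outside the comparison. Of 198 such genes with 20 or more exon reads in either library, 23 (11.6%) were at least 4-fold higher in the prepupa and 60 (30.3%) at least 4-fold lower, with a median log2 ratio of -0.16. Among the protein-coding genes compared, 16.7% were higher and 8.5% lower. Those of up to 500 exon bases had 21.3% higher and 13.9% lower, and those of 500 to 1000 bases 8.98% and 19.9%. The long noncoding RNAs named below have 317 to 352 exon bases, and their counts were not matched for length. With no replicate and no control library, these counts are descriptions. LOC118280798, the second most abundant transcript of the prepupal library, had 52603 TPM in the prepupa and 52.6 TPM in L6. Among the 10 most abundant of L6, LOC118266537 had no read in the prepupa and 24346 TPM in L6, and LOC118266176 had 26.5 TPM in the prepupa and 17655 TPM in L6. LOC118273064 was abundant at both stages, with 9699 TPM in the prepupa and 16348 TPM in L6.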

How the results depend on the processing

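With TPM as deposited, 4552 genes were at least 4-fold higher and 463 lower, with a median log2 ratio of 1.71. In that setting rRNA stayed in, and it took 87.8% of the exon reads of L6 and 0.307% of those of the prepupa. Higher genes were 66.3% of all calls, against 90.8% with TPM as deposited, 58.4% with TMM or with CPM, and 46.7% with ratios centred on the median (1103 higher). Centring on genes of like exon length, added after the data were seen, left 1066 higher, and 1018 of the 1840 and 910 of the 935 calls were kept. The median was 0.35 with TMM and 0.28 with CPM. A pseudocount of 0.1 gave 2836 higher and a median of 0.77, and one of 5 gave 920 higher, 546 lower and 0.31. Asking for 20 reads in both libraries left 791 higher and 364 lower at a median of 0.35, and 100 reads in either left 467 lower at 0.87. The median was 0.013 without a filter and 0.45 at a TPM of 1 in either library. At 2-fold there were 4207 higher and 1646 lower, and at 10-fold 650 and 560. The juvenile hormone list, at a median of 2.96, came to -2.49 with 20 reads in both libraries, which leaves 2 of its 6 genes. No gene called higher was called lower, or the reverse, under any scaling, filter or pseudocount run. That outcome was nearly fixed in advance, so it is no check of the calls. Filters left the ratios as they were, a pseudocount cannot reverse one, and rescaling shifted most ratios by a like amount. No paired analysis was possible because each stage has 1 library, and no library could be left out. Low L6 values rest on few reads, and variation between insects, dissections and libraries is not measured.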
